A study of Mus musculus with 24 samples.

Results

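The cytochrome P450 genes of families 1 to 4 were taken as every gene whose symbol is Cyp, a family number from 1 to 4, a subfamily letter and a gene number, read from probe sets that name exactly 1 gene. This gave 73 of the 19505 named genes on the array, each with 1 probe set. They fall into 21 subfamilies, of which 12 hold 1 gene here. Family Cyp1 has 3 members, Cyp2 has 47, Cyp3 has 7 and Cyp4 has 16. The series profiled outbred ICR-CD1 mice on Affymetrix arrays, with 24 arrays in 6 groups of 4. Each of 3 stages was sampled in grandoffspring of control grandfathers and in grandoffspring of obese grandfathers, which the labels call SL; the groups are named the control and the SL line here. The stages were embryos of embryonic day 7.5 (ED7.5), embryos of embryonic day 14.5 (ED14.5) and livers of postnatal day 7.5 (PD7.5). The labels give no sex, no litter and no account of how the grandfathers became obese, and the letters SL are not spelled out. They also do not say whether arrays of a group came from separate litters, so p-values measure the spread between these samples, which may be technical in part.

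Cytochromes P450 are haem enzymes that insert an oxygen atom into their substrates, taking electrons from NADPH through P450 reductase, and those of families 1 to 3 are the main enzymes that oxidise drugs and other foreign compounds in the liver. Family 4 mainly hydroxylates fatty acids and eicosanoids. In liver, transcription of many of these genes is under the nuclear receptors CAR, PXR and PPARA, the Ah receptor and hepatocyte factors such as HNF4A, and in rodents many are low before birth and rise around or after it.

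All values below are log2 levels as deposited, and values of a group are listed in the order of replicates 1 to 4. An array's background was taken as the 75th percentile of its intron control probe sets, which measure sequence that mature transcripts lack. It lay between 5.05 and 6.53 over the 24 arrays. Probe sets have different affinities, so levels are compared between stages and lines within a gene and not between genes. Probe sequences were not used here, so how far a probe set also reads a near-identical paralog is unknown. The ED7.5 arrays carried decidual transcripts, with 9 of 10 decidua markers above background on all 4 control arrays. The ED14.5 arrays, labelled as whole embryo, had 12 of 15 hepatocyte markers and 6 of 6 definitive erythroid markers above background, but 1 of 10 markers of neurons, muscle and cartilage. The groups are called by their labels throughout. From ED14.5 to PD7.5 liver in controls, the mean of the hepatocyte markers went from between 10.68 and 10.82 per array to between 12.78 and 12.91, and that of the erythroid markers from between 12.06 and 12.18 to between 9.05 and 10.05. The mean of the Y-linked genes was between 8.08 and 8.82 on all liver arrays and between 2.19 and 3.31 on all ED7.5 arrays. It was 8.67, 2.47, 2.52 and 8.59 on the ED14.5 control arrays and 2.45, 2.96, 8.65 and 3.12 on the ED14.5 SL arrays. The part of the hepatocyte and erythroid shifts in the P450 results was not tested. With the Y-linked mean as a covariate the SL comparisons at each stage still called 0 P450 genes in limma, and for the comparison of stages it was not tested. In such bulk RNA fewer cells of a type and less RNA per cell cannot be told apart. Of 7 kidney tubule markers 0 were above background on any ED14.5 or liver array. Of 6 lung epithelium markers 0 were above it on all 4 arrays of an ED14.5 or liver group, and 1 was on some SL livers. Of 8 intestine markers 1 was above it on all ED14.5 control arrays and 2 on all control livers, and 2 rose between these groups.

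Between ED14.5 and PD7.5 liver, 51 of the 73 P450 genes rose and 0 fell in the control line. Age and sample type, embryo or liver, change together in this comparison and cannot be told apart. A call required a limma adjusted p below 0.05 over all named genes and a difference of at least 1 on the log2 scale. Among all named genes 10.4% rose and 10.2% fell by the same rule. In the SL line, measured on separate arrays, 53 members rose and 0 fell, against 10.6% and 11.2% of all named genes. The same 51 genes rose in both lines. The other two in SL were Cyp2c66 and Cyp2d34, which were below background on every array of all groups. The median member difference was 2.76 in each line, against -0.02 in the control line and 0.03 in the SL line for all named genes. With members below background at either stage, but not both, counted at the lowest fold their arrays allow, the medians were 1.67 and 1.86. Members below background at both stages kept their fitted difference in these medians. The difference between stages was within 0.5 on the log2 scale of the other line's for 55 of the 73 genes, with a median absolute gap of 0.31.

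Counted by detection, 30 members went from 0 of 4 control arrays above background at ED14.5 to 4 of 4 in liver, and 2.12% of all named genes did so. In the SL line 32 members did, against 1.83% of all named genes, and 30 members did in both lines. Another 14 members were above background on all control arrays of both stages, 20 on none of either, and 0 were lost. The remaining 9 were above background on some arrays of a group. In all, 46 members in control liver and 48 in SL liver were above background on 4 of 4 arrays, compared with 14 and 15 at ED14.5 and 10 and 13 at ED7.5. Over all named genes the shares were 51.2% and 49.8% in liver, 47.8% and 49.2% at ED14.5, and 48.9% and 55.8% at ED7.5. With the 95th percentile of the intron controls as background these counts were 36 and 36 in liver, 6 and 6 at ED14.5 and 3 and 4 at ED7.5. For 18 members no array of the 24 was above background, so the data give only an upper limit for them.

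**Figure D1:**
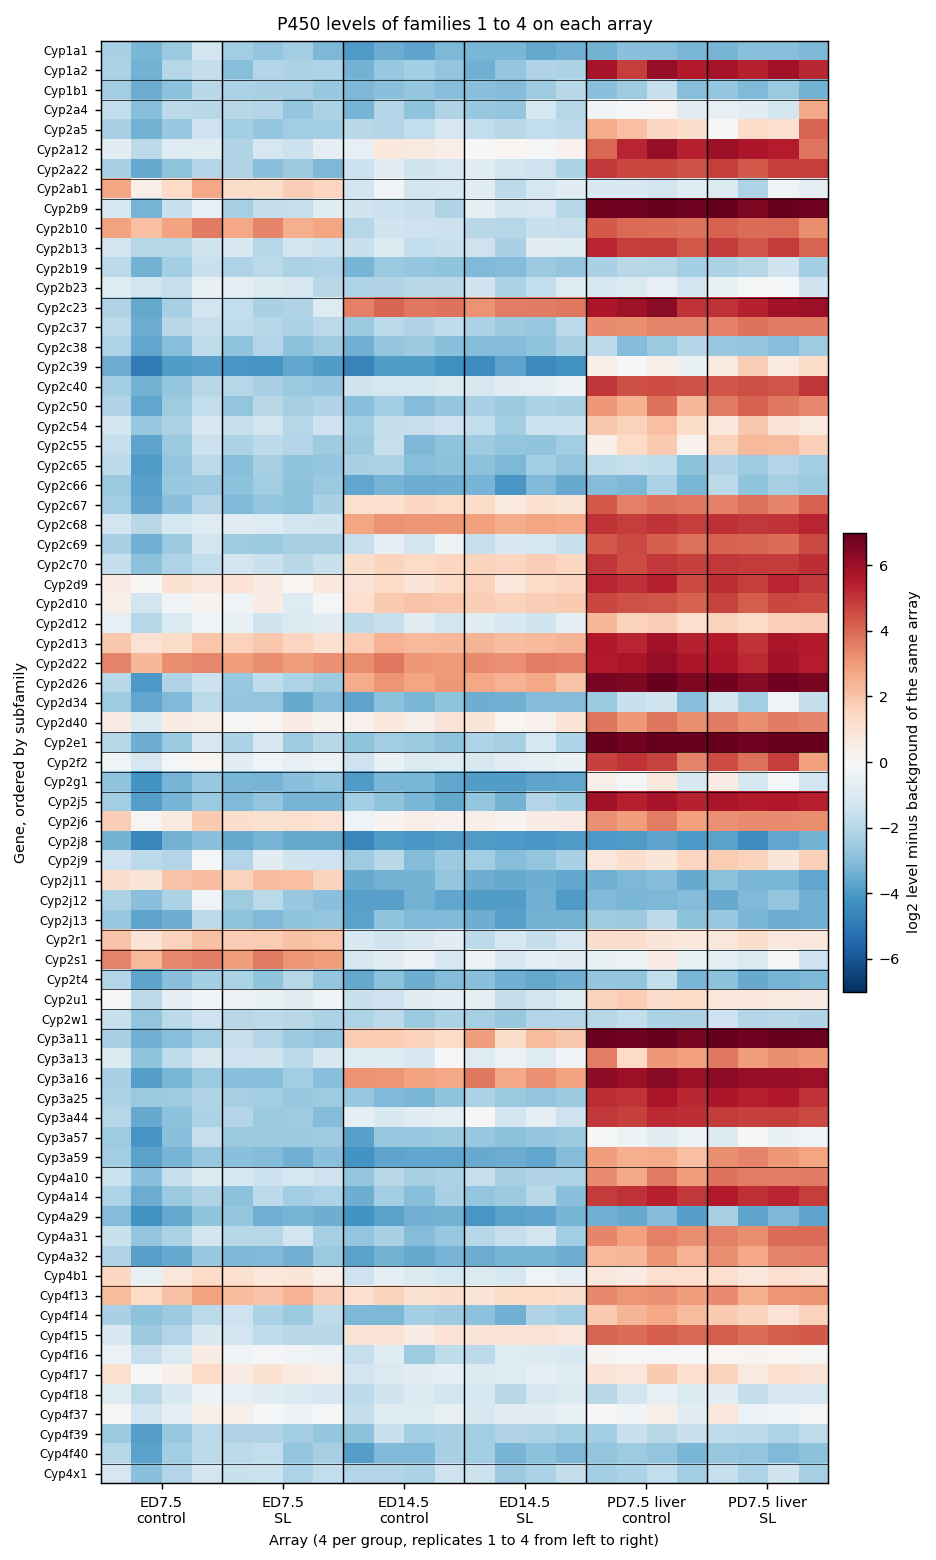
Log2 levels of the 73 P450 genes (y axis, ordered by subfamily) on the 24 arrays (x axis, 4 per group), with colour giving the level minus the background of the same array. Most Cyp2a, Cyp2c, Cyp3a and Cyp4a genes are below background on the ED14.5 arrays or close to it and higher on the liver arrays of both lines, while 6 of 8 Cyp2d genes are already above background at ED14.5.

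Subfamilies differed in how many of their genes were detected at ED14.5. All 7 Cyp3a and all 4 Cyp2a genes rose between ED14.5 and liver in controls, with medians of 5.01 and 4.02. Of the 5 Cyp4a genes 4 rose, with a median of 5.72, and of the 5 Cyp2b genes 3 rose, with a median of 5.35. In the largest subfamily, 11 of 14 Cyp2c genes rose, with a median of 3.23. Cyp2d stood apart by detection at the 75th percentile background, because 6 of its 8 genes were already above it on all ED14.5 control arrays. With the 95th percentile only 6 of all 73 members passed there, so the Cyp2d count depends on the background level. Detection also depends on the affinity of a probe set. The Cyp2d genes rose further, 7 of 8 with a median of 2.75. Only 3 of 7 Cyp2j and 5 of 9 Cyp4f genes rose, with medians of 0.53 and 1.47. Genes below background at either stage, but not both, were then counted at their bound. This brought the medians to 3.01 for Cyp3a, 3.04 for Cyp2a, 2.90 for Cyp4a and 3.76 for Cyp2b. Those of Cyp2c, Cyp2d, Cyp2j and Cyp4f became 1.72, 2.55, 0.53 and 0.18. Genes below background at both stages kept their fitted difference, and the medians of Cyp2j and Cyp4f were those of the undetected Cyp2j13 and Cyp4f39. No test was made between subfamilies. In the SL line the counts of genes that rose were the same except 12 for Cyp2c and 8 for Cyp2d.

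**Figure D2:**
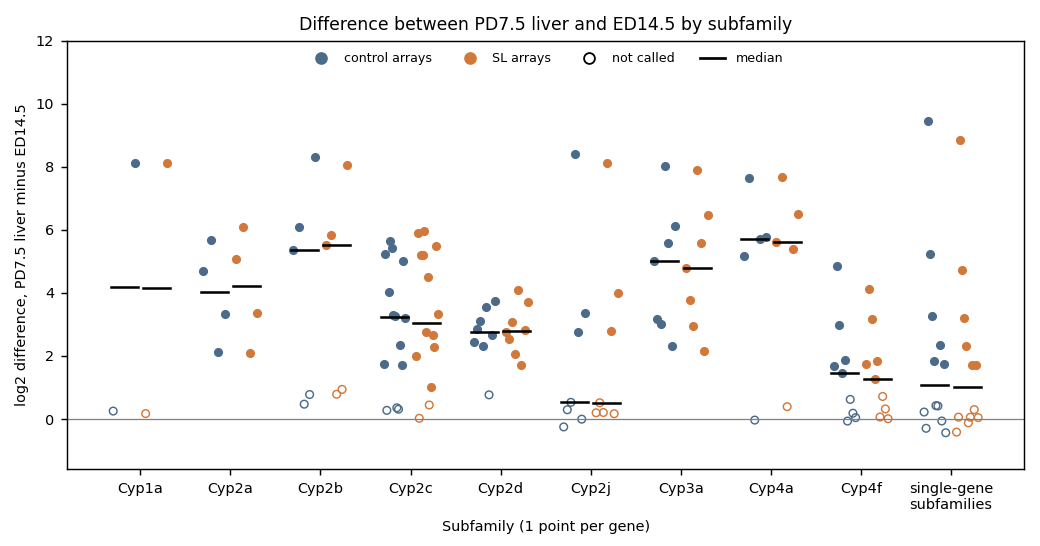
Difference in log2 level between PD7.5 liver and ED14.5 (y axis) for each P450 gene, by subfamily (x axis), with the control and SL lines side by side, filled points for genes that passed the test and black bars for medians. Cyp3a, Cyp2a and Cyp2d genes lie above 0 in both lines, while Cyp2j and Cyp4f genes include several near 0.

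Of the 3 Cyp1 genes 1 rose, and the others were not detected. Cyp1a2, the hepatic Ah receptor target that metabolises caffeine and arylamines, read 3.20, 3.32, 3.67 and 3.25 on the ED14.5 control arrays. In control liver it read 11.70, 10.80, 11.82 and 11.61. Every liver array was thus far above every ED14.5 array, and since ED14.5 was below background the rise was at least 40.8-fold, with a fitted difference of 8.12 ± 0.22 (SE, limma adjusted p = 7.99e-09). In the SL line the rise was at least 45.5-fold. The paralog Cyp1a1, an Ah receptor target that is inducible in most tissues, had means of 2.56 at ED14.5 and 2.81 in liver and was never above background. Cyp1b1, a mostly extrahepatic oestrogen and carcinogen hydroxylase, was likewise never above background, with means of 3.18 and 3.40.

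The Cyp2a genes all rose. Cyp2a22 went from 5.01, 5.17, 4.66 and 4.80 at ED14.5 to 10.86, 10.67, 10.34 and 10.51 in control liver, a rise of at least 22.1-fold. Cyp2a12 read 5.95, 6.70, 6.65 and 6.46 at ED14.5, above background on 3 of 4 arrays, and 9.95, 11.31, 11.81 and 11.53 in control liver. Cyp2a5, the mouse coumarin hydroxylase, was below background on all ED14.5 control arrays and rose at least 3.05-fold, with a limma adjusted p of 1.61e-05. Cyp2a4, a testosterone hydroxylase, passed the test but was above background on only 1 of 4 control livers and on no ED14.5 array, so no fold is given.

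Cyp2a4 and Cyp2a5 were also the members whose replicate spread was largest. In SL liver Cyp2a5 read 5.92, 7.57, 7.08 and 10.10, compared with 8.49, 8.08, 7.10 and 7.28 in control liver. Cyp2a4 read 5.31, 5.39, 4.66 and 8.68 in SL liver and 5.73, 5.91, 5.80 and 5.31 in control liver. Replicate 4 of the SL livers was the highest of all 8 liver arrays for both genes, and for Cyp2a4 the other 3 SL arrays were lower than 3 of the 4 control arrays. Without that array, an alternative chosen after seeing the data, the SL minus control difference went from -0.07 to -0.88 for Cyp2a5 and from 0.32 to -0.57 for Cyp2a4. The same array had the lowest SL value of Cyp2a12, where SL liver read 11.87, 11.87, 11.45 and 9.76, and without it the difference of Cyp2a12 went from 0.09 to 0.58. Across the 73 genes, a group's range exceeded 2 on the log2 scale only for Cyp2a4 at 4.03, Cyp2a5 at 4.18 and Cyp2a12 at 2.11 in SL liver, and for the intestinal form Cyp3a13 at 2.11 in control liver. The median range per group was between 0.56 and 0.65.

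The windows of 250 bases before the annotated starts of Cyp2a4 and Cyp2a5 are shown because both genes were highest on the same SL liver array. They come from RefSeq on build GRCm38.p6, at chr7:26306942-26307191 and chr7:26835089-26835338, both on the plus strand. Capitals mark the bases that differ in the alignment, which are 5 of 250, giving 98% identity. In this and the later pairs, capitals at the ends come from windows offset by a few bases.
Cyp2a4: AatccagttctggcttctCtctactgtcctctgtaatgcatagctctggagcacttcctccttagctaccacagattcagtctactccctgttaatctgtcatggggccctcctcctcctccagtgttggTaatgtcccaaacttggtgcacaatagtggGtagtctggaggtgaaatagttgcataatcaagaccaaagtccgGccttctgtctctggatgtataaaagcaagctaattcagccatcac
Cyp2a5: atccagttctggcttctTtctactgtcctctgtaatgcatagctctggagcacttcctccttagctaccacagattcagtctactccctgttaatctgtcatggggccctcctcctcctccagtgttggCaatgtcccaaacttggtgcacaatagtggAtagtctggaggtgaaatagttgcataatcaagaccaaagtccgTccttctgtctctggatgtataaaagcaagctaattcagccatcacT

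Among the Cyp2b genes, Cyp2b9 and Cyp2b13 were detected in liver but not at ED14.5. Cyp2b9 read 5.13, 4.49, 4.47 and 3.88 at ED14.5 and 12.69, 12.80, 12.91 and 12.85 in control liver, a rise of at least 103-fold. Cyp2b13 rose from a mean of 4.67 to 10.76, at least 24.8-fold. Their promoter windows of 300 bases matched at 298 positions, and how far their probe sets share signal is unknown. Cyp2b10, the standard target of the receptor CAR, had a different course. It read 8.09, 8.62, 8.59 and 8.68 at ED7.5, 4.51, 4.60, 4.59 and 4.50 at ED14.5 and 10.18, 9.97, 9.55 and 9.88 in control liver. All ED7.5 and liver arrays were above background and no ED14.5 array was. The fall from ED7.5 to ED14.5 was at least 5.15-fold and the rise to liver at least 13.6-fold. The SL arrays followed the same course, with 8.31, 8.89, 8.21 and 8.41, then 4.16, 4.30, 4.46 and 4.37, then 10.02, 10.10, 9.89 and 9.31. Cyp2b19, a skin form, and Cyp2b23 were below background on every array.

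The Cyp2c subfamily, whose enzymes metabolise drugs and epoxidise arachidonic acid, held both genes detected at ED14.5 and genes detected in liver but not at ED14.5. Cyp2c23, an arachidonic acid epoxygenase, read 10.05, 10.05, 9.73 and 9.82 at ED14.5 and 11.57, 11.92, 11.94 and 11.15 in control liver, a rise of 1.73 ± 0.19 (SE, limma adjusted p = 3.47e-05). Cyp2c68 read 9.28, 9.10, 9.10 and 9.10 at ED14.5 and 10.98, 10.84, 10.71 and 10.89 in control liver, a rise of 1.71 ± 0.11 (SE, limma adjusted p = 1.25e-06). Cyp2c67 and Cyp2c70 were also above background on all arrays of both stages. Cyp2c70, which makes the muricholic bile acids of mice, rose from a mean of 7.54 to 10.74. By contrast Cyp2c40 read 5.11, 4.73, 4.82 and 4.96 at ED14.5 and 10.90, 10.52, 10.24 and 10.51 in liver, a rise of at least 21.3-fold. Cyp2c69 read 4.88, 5.30, 4.73 and 5.64 at ED14.5 and 10.21, 10.61, 9.85 and 9.91 in control liver, at least 16.2-fold higher. Cyp2c37, Cyp2c50, Cyp2c54 and Cyp2c55 were detected in liver on all control arrays and at ED14.5 on none, with lower limits of 8.94, 6.39, 2.84 and 1.68-fold. Cyp2c39, a retinoic acid hydroxylase, reached a mean of 5.98, above background on 3 of 4 control livers and 4 of 4 SL livers. Cyp2c38, Cyp2c65 and Cyp2c66 were below background everywhere.

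Cyp2c68 and Cyp2c69 are shown side by side because these paralogs of the same cluster, with Cyp2c40 between them, fell on opposite sides of detection at ED14.5. Their 250 bases before the start lie at chr19:39741102-39741351 and chr19:39886770-39887019, minus strand, GRCm38.p6. The windows match at 232 bases and differ at 18, which are in capitals, giving 92.8% identity.
Cyp2c68: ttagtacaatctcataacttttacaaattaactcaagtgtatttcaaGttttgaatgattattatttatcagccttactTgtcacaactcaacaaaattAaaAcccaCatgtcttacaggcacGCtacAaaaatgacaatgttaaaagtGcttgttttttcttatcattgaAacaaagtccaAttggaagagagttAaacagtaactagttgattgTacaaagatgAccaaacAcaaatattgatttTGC
Cyp2c69: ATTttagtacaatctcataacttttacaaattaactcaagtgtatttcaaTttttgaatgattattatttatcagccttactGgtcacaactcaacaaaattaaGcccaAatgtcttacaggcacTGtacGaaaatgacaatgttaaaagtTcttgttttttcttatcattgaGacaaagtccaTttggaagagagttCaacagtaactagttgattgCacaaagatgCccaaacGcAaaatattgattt

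Of the Cyp2d genes, relatives of the human drug-metabolising enzyme CYP2D6, 6 of 8 were above the 75th percentile background on all ED14.5 control arrays. Cyp2d26 read 9.12, 9.09, 8.78 and 9.03 at ED14.5 and 12.53, 12.53, 12.59 and 12.58 in control liver, rising by 3.55 ± 0.11 (SE, limma adjusted p = 1.86e-08). At ED7.5 its mean was 3.26, below background. Cyp2d9 rose from 7.48, 7.31, 6.91 and 7.32 at ED14.5 to 11.26, 11.08, 11.01 and 10.70 in control liver, a difference of 3.76 ± 0.16 (SE, limma adjusted p = 1e-07). Cyp2d22 was above background at all 3 stages, with control means of 8.75, 9.37 and 11.69. Cyp2d13 followed with 7.18, 8.35 and 11.45. Cyp2d10 and Cyp2d40 rose from 7.86 and 6.69 at ED14.5 to 10.32 and 9.35 in liver. Cyp2d12 was detected in liver but not at ED14.5, at least 2.8-fold above ED14.5, and Cyp2d34 on no array.

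Cyp2e1, the ethanol and acetone oxidising form, had the largest fitted rise among the 73 genes in controls. It read 3.69, 3.53, 3.43 and 3.18 at ED14.5 and 12.86, 12.74, 13.04 and 13.02 in liver, a difference of 9.46 ± 0.14 (SE, limma adjusted p = 5.55e-10). The 8 arrays separated completely, and the rise was at least 110-fold in controls and 118-fold in the SL line. Cyp2j5, an arachidonic acid epoxygenase of liver and kidney, read 4.10, 3.14, 2.86 and 2.39 at ED14.5 and 11.78, 11.43, 11.42 and 11.48 in control liver, at least 42.1-fold higher. Its subfamily was otherwise divided. Cyp2j9 rose at least 1.81-fold and Cyp2j6 rose by 2.76 from a level near background. Cyp2j8, Cyp2j12 and Cyp2j13 were below background on every array, and Cyp2j11 was detected at ED7.5 but not later.

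The single-gene subfamilies of Cyp2 were mixed. Cyp2f2, which activates naphthalene and is known from lung club cells as well as liver, went from 5.05, 5.54, 5.02 and 5.08 at ED14.5 to 10.69, 11.03, 10.36 and 9.54 in control liver, at least 19.3-fold higher. Cyp2u1, a fatty acid hydroxylase, read 4.96, 4.53, 5.31 and 5.34 at ED14.5 and 7.45, 7.76, 6.88 and 7.39 in control liver, at least 2.36-fold higher. Cyp2g1, the olfactory form, passed the test but was above background on only 2 of 4 control livers and on no ED14.5 array. Cyp2r1, a vitamin D hydroxylase of liver, read 7.26, 7.44, 7.32 and 7.09 at ED7.5, 5.42, 4.60, 4.96 and 5.27 at ED14.5 and 7.12, 7.22, 6.51 and 6.80 in liver. It dipped below background at ED14.5 and then rose at least 1.72-fold, with a limma adjusted p of 5.85e-05. Cyp2s1, an epithelial form, had means of 5.26 and 5.69, and the difference of 0.43 missed the threshold (limma adjusted p = 0.144). Cyp2ab1 had means of 5.12 and 4.83, below background on the ED14.5 arrays. Cyp2t4 and Cyp2w1 were below background everywhere.

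The Cyp3a genes include the main drug oxidase of adult mouse liver, Cyp3a11, and the form described as fetal, Cyp3a16. All passed the test for a rise in both lines, although Cyp3a57 was hardly detected. Cyp3a16 read 9.65, 9.04, 8.86 and 8.73 at ED14.5 and 12.19, 11.97, 12.02 and 12.12 in control liver, a rise of 3.01 ± 0.19 (SE, limma adjusted p = 1.05e-06). Cyp3a11 read 8.30, 7.73, 7.67 and 7.33 at ED14.5 and 12.76, 12.79, 12.85 and 12.67 in control liver, a rise of 5.01 ± 0.19 (SE, limma adjusted p = 4.39e-08). These were the only Cyp3a genes above background on all ED14.5 control arrays, and neither had overlapping stages. Cyp3a25 went from 3.88, 2.87, 2.83 and 3.18 at ED14.5 to 11.09, 11.04, 11.34 and 11.35 in control liver, at least 33.7-fold higher. Cyp3a44 went from 5.83, 4.93, 5.27 and 5.30 at ED14.5 to 10.85, 10.75, 10.85 and 11.23 in control liver, at least 27.7-fold higher. Cyp3a13, known from intestine, read 5.68, 5.10, 4.99 and 5.98 at ED14.5 and 9.47, 7.36, 8.66 and 8.93 in control liver, at least 5.56-fold higher. Liver arrays of Cyp3a13 spread widely but stayed above all ED14.5 arrays. Cyp3a59 rose from a mean of 2.34 to 8.45, at least 5-fold. Cyp3a57 was above background on only 1 of 4 control livers, and on no SL liver and no ED14.5 array. At ED14.5 the level of Cyp3a16, Cyp3a11 and Cyp3a44 was highest on the array of replicate 1 in both lines, for all 3 genes. Cyp3a16 read 9.77, 8.95, 9.22 and 8.80 in SL embryos. The other Cyp3a genes were not counted in this way, and Cyp3a13 was highest on replicate 4 in controls. Cyp3a44 was below background on these arrays, and control replicate 1 had the highest background of its group, at 6.51.

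Cyp3a16 and Cyp3a44 are printed because near-identical upstream windows went with detection and non-detection at ED14.5. They lie at chr5:145469724-145469973 and chr5:145805875-145806124, minus strand, GRCm38.p6. The windows match at 236 of 250 bases, or 94.4%, and the 14 that differ are in capitals.
Cyp3a16: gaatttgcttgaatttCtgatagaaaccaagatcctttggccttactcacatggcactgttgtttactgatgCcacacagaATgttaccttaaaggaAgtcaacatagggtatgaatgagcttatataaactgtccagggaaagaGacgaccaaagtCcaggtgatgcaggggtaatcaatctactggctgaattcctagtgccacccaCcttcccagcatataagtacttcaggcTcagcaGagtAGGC
Cyp3a44: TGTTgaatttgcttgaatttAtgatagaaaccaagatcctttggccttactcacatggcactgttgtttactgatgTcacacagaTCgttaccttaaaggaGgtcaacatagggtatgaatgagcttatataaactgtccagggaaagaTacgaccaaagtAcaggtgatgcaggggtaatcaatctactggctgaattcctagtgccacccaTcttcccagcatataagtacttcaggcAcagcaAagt

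**Figure D3:**
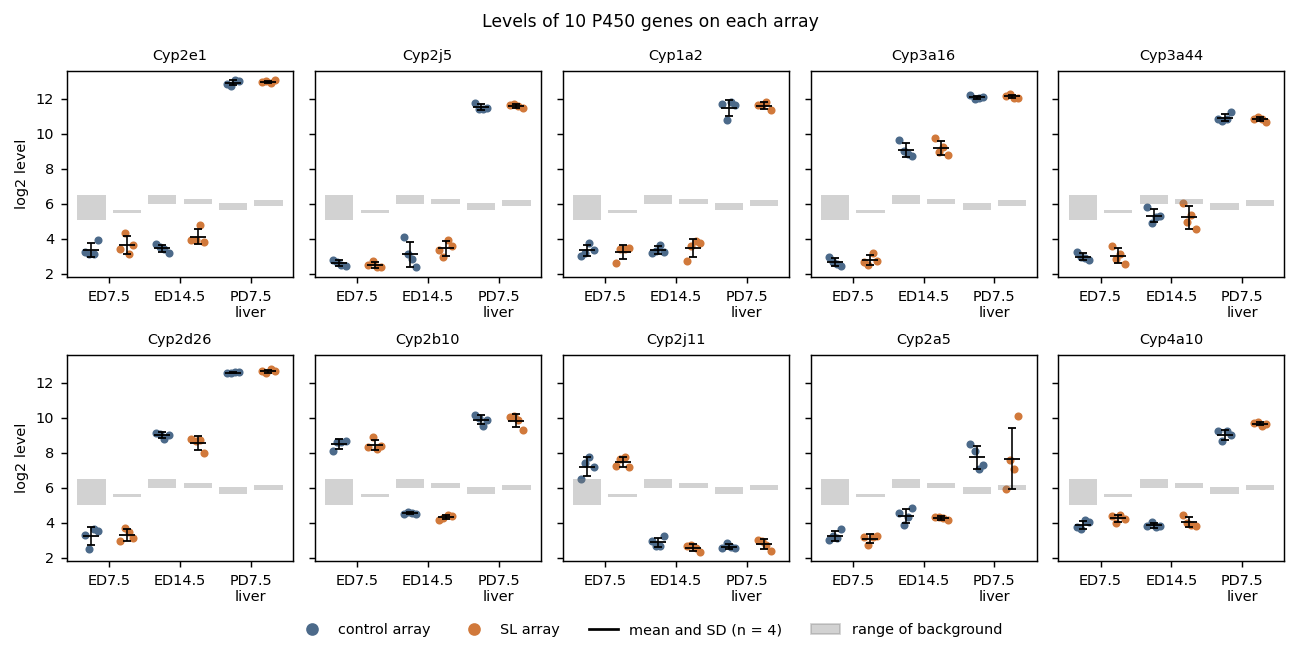
Log2 level (y axis) of 10 P450 genes on each array (points) at the 3 stages (x axis) in the control and SL lines, with black marks for the group mean and SD and a grey band for the range of array backgrounds. Cyp2e1, Cyp2j5 and Cyp1a2 are near the bottom at both embryonic stages and high in every liver, Cyp3a16 and Cyp2d26 are already high at ED14.5, and Cyp2b10 is low only at ED14.5.

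The Cyp4a genes, fatty acid omega-hydroxylases that are standard PPARA targets, rose in 4 of 5 cases. Cyp4a14 read 3.07, 3.57, 3.06 and 3.73 at ED14.5 and 10.83, 11.05, 11.07 and 11.00 in control liver, at least 29-fold higher. Cyp4a10 read 3.83, 4.05, 3.74 and 3.81 at ED14.5 and 9.24, 8.65, 9.26 and 8.99 in control liver, at least 7.49-fold higher. Cyp4a31 and Cyp4a32 rose at least 8.22-fold and 4.95-fold. No Cyp4a gene that rose was above background at ED14.5. Cyp4a29 stayed below background, at 2.48 and 2.45.

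The Cyp4f genes, which hydroxylate leukotrienes and vitamin E, were heterogeneous. Cyp4f14 read 3.36, 2.82, 3.67 and 3.46 at ED14.5 and 7.76, 8.35, 8.35 and 8.28 in control liver, at least 4.15-fold higher. Cyp4f15 and Cyp4f13 were above background at both stages and rose by 3.00 and 1.67. Cyp4f17 was below background on all ED14.5 control arrays and rose at least 1.94-fold. Cyp4f16 passed the test but was above background on only 1 of 4 control livers and on no ED14.5 array. Cyp4f37 had a mean of 5.77 in liver. Cyp4f18, known from neutrophils, Cyp4f39, known from skin, and Cyp4f40 were below background on every array. Cyp4b1, known from lung, read 5.06, 5.32, 5.04 and 4.76 at ED14.5 and 6.65, 6.57, 6.77 and 7.22 in control liver, at least 1.6-fold higher. The brain form Cyp4x1 had means of 4.17 and 3.74, below background, with an adjusted p of 0.0859 (limma).

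From ED7.5 to ED14.5 in controls, 17 members rose and 8 fell, against 11% and 14.5% of all named genes. The median member difference was 0.20, against 0.03 for all named genes. These ED14.5 arrays are also those of the comparison with liver. Stage cannot be told apart here from the tissue mix, since ED7.5 carried decidual markers and ED14.5 hepatocyte markers. The Y-linked mean also differed, between 2.19 and 3.31 on the ED7.5 control arrays and between 2.47 and 8.67 on the ED14.5 control arrays. Its part was not tested. The genes that rose included 6 Cyp2c, 4 Cyp3a, 3 Cyp2d and 3 Cyp2a genes. Cyp2c23 rose at least 19.1-fold, Cyp2c68 at least 11.3-fold, Cyp3a16 at least 10.7-fold and Cyp2d26 at least 10.2-fold, each from below background at ED7.5. Cyp2a5, Cyp2a22, Cyp2c40, Cyp2c69, Cyp3a13 and Cyp3a44 passed the test while below background at both embryonic stages.

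The 8 genes that fell were Cyp2b10, Cyp2s1, Cyp2j11, Cyp2ab1, Cyp2r1, Cyp4b1, Cyp4f17 and Cyp2j12. Cyp2s1 read 8.74, 8.82, 9.13 and 8.65 at ED7.5 and 5.38, 5.20, 5.63 and 4.84 at ED14.5, at least 6.52-fold lower. Cyp2j11 read 6.49, 7.40, 7.74 and 7.21 at ED7.5 and 2.97, 2.67, 2.70 and 3.24 at ED14.5, at least 2.11-fold lower, and 2.57, 2.84, 2.63 and 2.54 in liver. Cyp2ab1 read 8.03, 6.97, 7.14 and 7.77 at ED7.5 and 5.15, 5.78, 4.76 and 4.79 at ED14.5, at least 2.55-fold lower. The ED7.5 and ED14.5 arrays did not overlap for these 3 genes. Cyp2r1 fell at least 2.21-fold, and Cyp4b1 and Cyp4f17 at least 1.23-fold and 1.14-fold. Cyp2j12 was below background at both stages. ED7.5 control replicate 2 had the highest background of all arrays, at 6.53.

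Most members sit in tandem clusters, taken from the order of protein-coding genes in RefSeq GRCm38.p6. The Cyp2c cluster on chromosome 19 holds 13 members, of which 6 were detected in liver but not at ED14.5, 3 at both stages and 3 at neither. The chromosome 7 cluster holds 13 members of the 2s, 2b, 2a, 2g, 2f and 2t subfamilies, with 6, 0 and 3. The Cyp2d cluster on chromosome 15 holds 7, with 1, 5 and 1. The Cyp3a cluster on chromosome 5 holds 6, with 3, 2 and 0. On chromosome 4 the Cyp4 cluster holds 7, with 5, 0 and 2, and the Cyp2j cluster 7, with 2, 0 and 4. The Cyp4f cluster on chromosome 17 holds 8, with 2, 2 and 2. Cyp1a1 and Cyp1a2, neighbours on chromosome 9, fell into opposite classes. The Cyp2c, Cyp2d, Cyp3a and Cyp4f clusters therefore held both genes detected at ED14.5 and genes detected in liver but not at ED14.5.

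**Figure D4:**
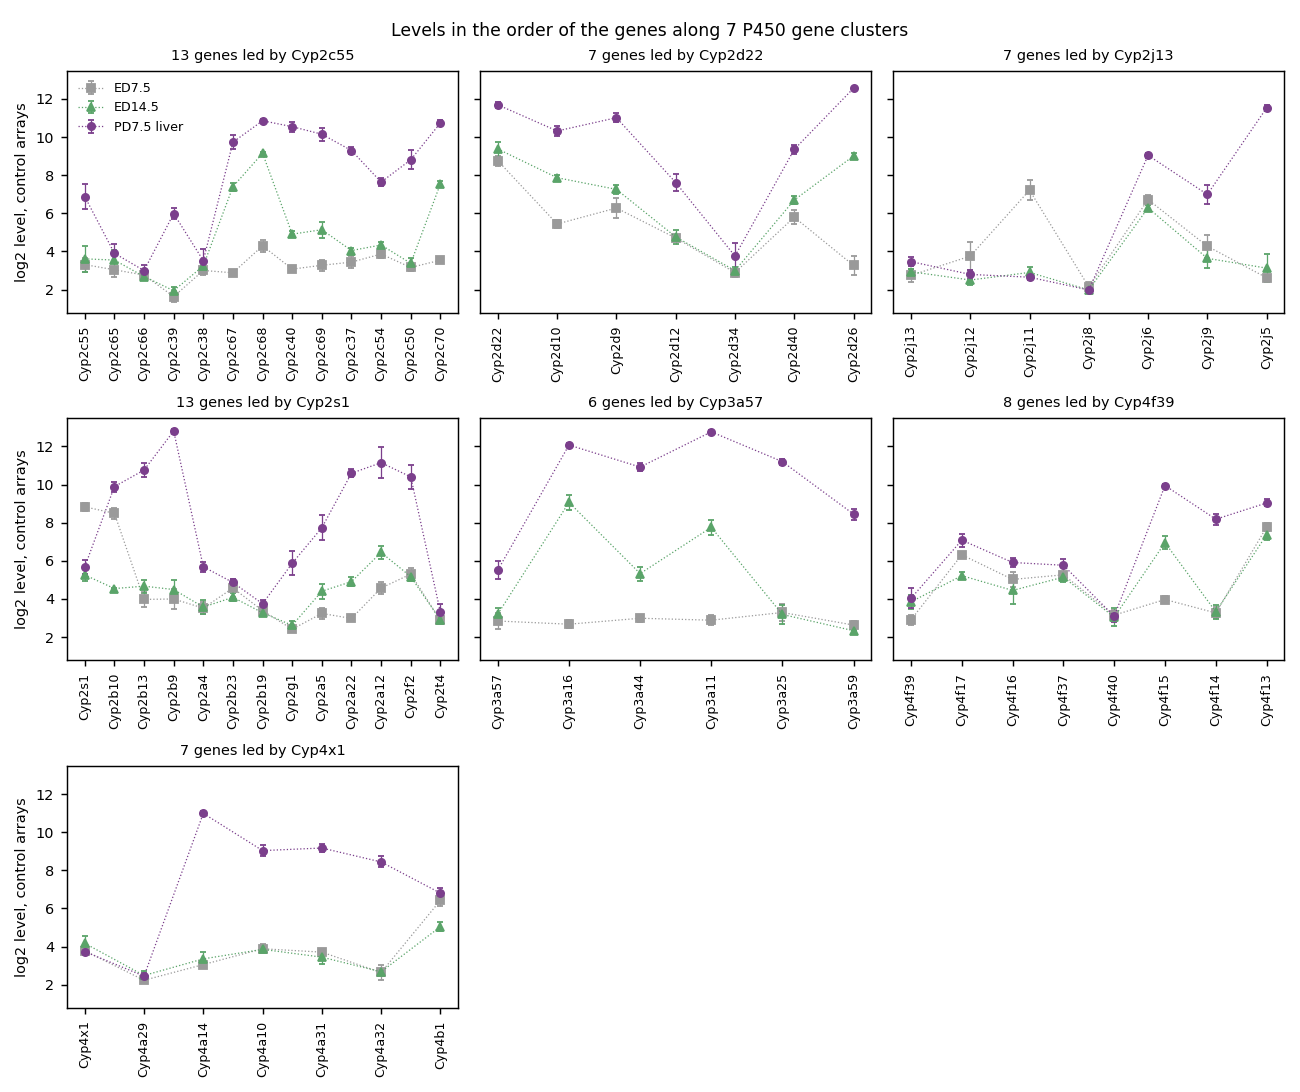
Log2 level (y axis; mean of 4 control arrays, bars are SD) of the P450 genes of 7 gene clusters, in gene order along the chromosome (x axis), at ED7.5, at ED14.5 and in PD7.5 liver. Stages are to be compared within a gene, and in the Cyp2c and Cyp3a clusters, genes detected at ED14.5 lie beside genes that were not.

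RefSeq promoter windows, 250 bases before to 50 bases after the start, were found for 60 of the 73 genes. The TATA box letters TATAAA, searched on both strands, occurred in 8 of 11 genes detected at both stages (72.7%), 10 of 23 detected in liver but not at ED14.5 (43.5%) and 4 of 18 detected at neither (22.2%), against 15.7% of 27025 genes with a window. The HNF4-type letters CAAAGTCC occurred in 5 of 11 (45.5%), 3 of 23 (13.0%) and 3 of 18 (16.7%), against 1.63%. The 5 were Cyp2c67, Cyp2c68, Cyp2c70, Cyp3a11 and Cyp3a16. Cyp2c69 held these letters too and Cyp3a44 did not, so the letters did not sort both pairs shown above in the same way. The C/EBP-type letters TTGCNNAA occurred in 1 of 11 (9.09%), 10 of 23 (43.5%) and 3 of 18 (16.7%), against 12.2%. The core of the Ah receptor element, GCGTG, occurred in 1 of 11 (9.09%), 4 of 23 (17.4%) and 7 of 18 (38.9%), against 35.2%. Other letters searched, in the same order, were of HNF1, FOXA, D-box, DR1 and E-box type. GTTAAT occurred in 18.2%, 21.7% and 5.56%, against 8.24%, and TGTTTAC in 18.2%, 8.70% and 11.1%, against 4.05%. TTATGNAA occurred in 0%, 13.0% and 11.1%, against 3.99%. AGGTCA occurred in 27.3%, 34.8% and 22.2%, against 18.1%, and CACGTG in 0% of each class, against 8.09%. Paralogs share sequence by descent, so these genes are not independent, and a match of letters is a description and not a binding site.

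Other genes of the pathway, in lists chosen by function, were counted by the same rule between ED14.5 and control liver. Of 9 electron donors and other P450 partners 2 rose and 1 fell, with a median of 0.50. The haem protein Pgrmc1 went from 10.69 to 12.25 and cytochrome b5, Cyb5a, from 11.15 to 12.41, while the biliverdin reductase Blvrb changed by -1.72. P450 reductase itself was not analysed here. Of 21 transcriptional regulators 15 rose and 0 fell, with a median of 1.45. The CAR gene Nr1i3 rose from 5.01 to 9.63, at least 11.3-fold, and the PXR gene Nr1i2 from 7.35 to 9.08. The bile acid receptor FXR, Nr1h4, rose by 3.11, and Nr0b2, the repressor SHP, at least 8.77-fold. Of 15 clock and PAR bZIP genes 10 rose and 0 fell, with Dbp going from 7.25 to 9.53. Of 10 genes of the growth hormone axis 5 rose and 1 fell, among them Igfals by 4.06 and Igf1 by 3.19.

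Of 20 P450 genes of other families, which make bile acids and steroids, 4 rose and 0 fell, with a median of 0.02. The bile acid enzymes Cyp8b1 and Cyp7a1 were among them, Cyp8b1 at least 16.9-fold and Cyp7a1 from 6.31 to 10.38. Of 34 conjugating enzymes and related phase 2 genes 21 rose and 0 fell, with a median of 1.82. Ugt2b1 rose at least 35.5-fold. Of 23 other phase 1 genes 21 rose and 0 fell, with a median of 2.87. The carboxylesterase Ces1c rose from 5.63 to 12.72, at least 96.5-fold. Of 18 PPARA targets other than Cyp4a, 10 rose and 1 fell, with Cpt1a rising by 3.59. Of 4 Ah receptor targets outside the P450s 0 rose and 0 fell in limma at the same threshold, while 2 had an unadjusted p below 0.05, as had 50.8% of all named genes.

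The SL comparison asks whether descent from an obese grandfather went with a different level at the same stage. At ED7.5, limma called 0 of 73 members at an adjusted p below 0.05, against 0.00513% of all named genes, which is 1 gene. Unadjusted p was below 0.05 for 2 members (2.74%) and for 5.49% of all named genes. The groups did not overlap for 1 member, against 3.05% of all named genes. That member was Cyp2c70, higher in SL by 0.48 ± 0.15 (SE), with all arrays below background. The smallest adjusted p of a member was 0.783.

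At ED14.5, limma called 0 members, against 0.0513% of all named genes, which is 10 genes, and unadjusted p was below 0.05 for 10 members (13.7%) and for 11.4% of all named genes. The groups did not overlap for 5 members, or 6.85%, against 7.98% of all named genes. Cyp2c68 read 8.97, 8.89, 8.79 and 8.70 in SL and 9.28, 9.10, 9.10 and 9.10 in controls, a difference of -0.31 ± 0.10 (SE, limma adjusted p = 0.283). Each SL array lay below each control array. Cyp2e1 read 3.94, 3.95, 4.79 and 3.84 in SL, a difference of 0.67 ± 0.21 (SE), with every array below background. Cyp2b10 and Cyp2j13 were lower and Cyp2c50 higher without overlap, also below background. Cyp2d26, which was detected, differed by -0.46 ± 0.19 (SE, limma adjusted p = 0.394). Of the 18 PPARA targets other than Cyp4a, 15 were above 0, with a median of 0.17 and 8 higher without overlap, but only Angptl4 was called, and it went from 8.60 to 9.50, a difference of 0.90 ± 0.11 (SE, limma adjusted p = 0.0456).

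In PD7.5 liver, limma called 0 members and 0% of all named genes, while unadjusted p was below 0.05 for 12 members (16.4%) and for 7.91% of all named genes. The groups did not overlap for 8 members, or 11%, against 4.43% of all named genes. Of these 7 were higher in SL (Cyp2c39, Cyp2c68, Cyp3a11, Cyp4a10, Cyp4a31, Cyp4a32 and Cyp4f15) and 1 was lower (Cyp4f14). The median member difference was 0.11, with 54 of 73 members above 0. For all named genes the median was 0.00, with 9896 of 19505 above 0. Of the 48 members above background on 4 of 4 arrays of either liver group, 36 were above 0, so undetected members also leaned upward. Of the 48, 46 passed in both groups. Cyp2c39 and Cyp4f16 passed only in SL liver, where their means were higher, so the filter itself adds these 2 to the 36. The median standard error of a member's difference was 0.178 at ED7.5, 0.181 at ED14.5 and 0.203 in liver.

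The 5 Cyp4a genes were all higher in SL liver, with a median difference of 0.49, but Cyp4a29 was below background on every array. The smallest difference was 0.24, for Cyp4a14. Cyp4a10 read 9.24, 8.65, 9.26 and 8.99 in controls and 9.69, 9.78, 9.53 and 9.66 in SL, a difference of 0.63 ± 0.16 (SE, limma adjusted p = 0.516). Cyp4a32 read 8.16, 8.29, 8.82 and 8.49 in controls and 9.12, 8.88, 9.37 and 9.55 in SL, a difference of 0.79 ± 0.19 (SE, limma adjusted p = 0.509). Cyp4a31 read 9.30, 8.86, 9.17 and 9.35 in controls and 9.42, 9.42, 9.89 and 9.93 in SL, a difference of 0.49 ± 0.18 (SE, limma adjusted p = 0.581). For these 3 genes the lowest SL array lay above the highest control array, and none passed the threshold. Of the other PPARA targets 3 of 18 were above 0 and 15 below, with a median of -0.06.

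Among Cyp2c genes the median difference in liver was 0.16, with 10 of 14 above 0 and 4 below. The lowest was Cyp2c54 at -0.57, with means of 7.64 in control liver and 7.06 in SL liver. Cyp2c39 read 6.25, 6.02, 6.07 and 5.58 in controls and 6.51, 7.92, 6.62 and 7.31 in SL, a difference of 1.11 ± 0.30 (SE, limma adjusted p = 0.516). Cyp2c50 read 8.95, 8.46, 9.45 and 8.37 in controls and 9.52, 10.33, 9.67 and 9.42 in SL, a difference of 0.93 ± 0.28 (SE, limma adjusted p = 0.54), with overlapping groups. Cyp2c55 differed by 1.08 ± 0.32 (SE). In the other direction, Cyp4f14 read 7.76, 8.35, 8.35 and 8.28 in controls and 7.73, 7.74, 6.97 and 7.64 in SL, a difference of -0.66 ± 0.21 (SE, limma adjusted p = 0.56). Cyp2u1 read 7.45, 7.76, 6.88 and 7.39 in controls and 6.68, 6.92, 6.58 and 6.55 in SL, a difference of -0.69 ± 0.19 (SE, limma adjusted p = 0.516), and its groups overlapped. Of the other subfamilies with more than 1 gene, the medians were 0.12 for Cyp1a, 0.19 for Cyp3a, 0.14 for Cyp2j, 0.10 for Cyp4f and Cyp2a, 0.08 for Cyp2d and 0.04 for Cyp2b. The 12 single genes ranged from -0.69 for Cyp2u1 to 0.41 for Cyp4x1, and Cyp2s1 at -0.46, Cyp2t4 at -0.47, Cyp2g1 at -0.37, Cyp2f2 at -0.35 and Cyp1b1 at -0.31 were also below 0. None of these passed the threshold.

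Other values moved with the SL liver group. The separation of exon from intron control probe sets, a measure of RNA and hybridisation quality, was between 0.906 and 0.920 on control arrays and between 0.897 and 0.904 on SL arrays. All 10 Kupffer cell markers were lower in SL, with a median of -0.24 and per-array means of 8.47 to 8.56 against 8.72 to 8.88. The erythroid markers had a median of -0.61, with per-array means of 7.57 to 9.62 against 9.05 to 10.05. Their part in the P450 differences was not tested.

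**Figure D5:**
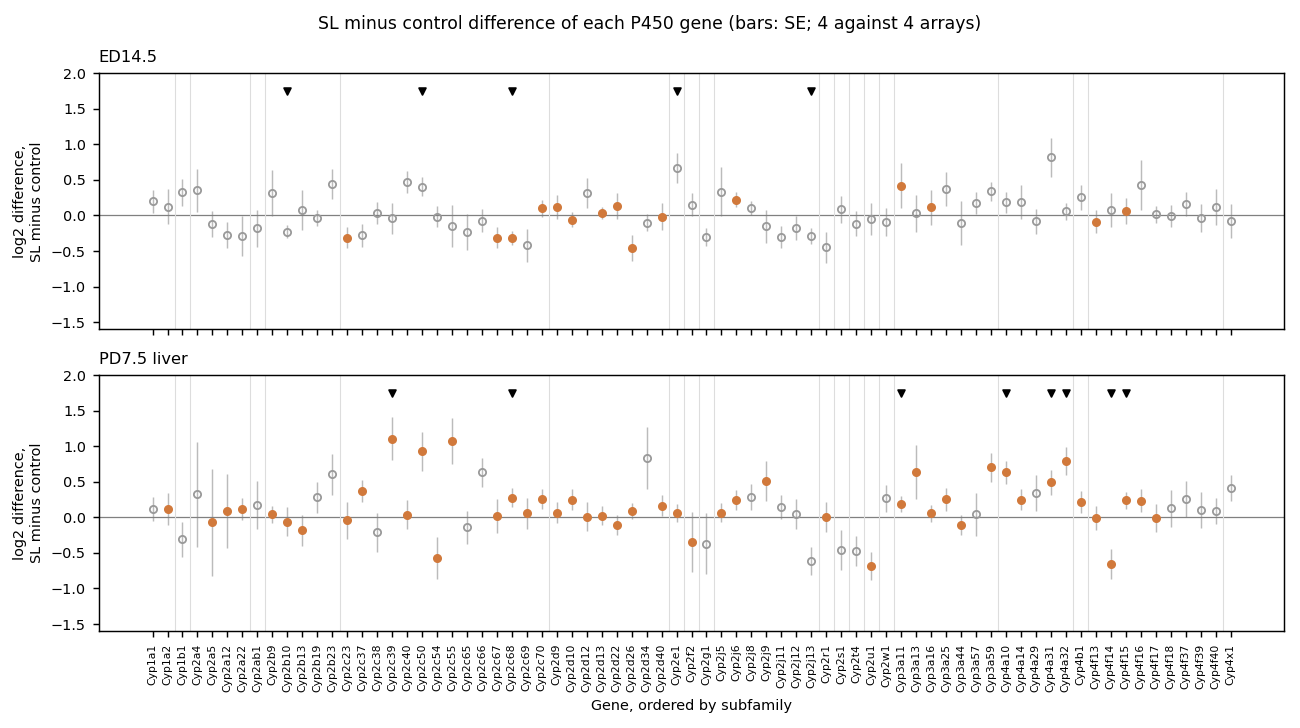
Difference in log2 level between SL and control (y axis, bars are SE) for each P450 gene (x axis, by subfamily) at ED14.5 and in PD7.5 liver; filled points were above background on all 4 arrays of either group and triangles mark groups that do not overlap. The Cyp4a genes all lie above 0 in liver, though Cyp4a29 was below background on every array. No gene at either stage passed the threshold.

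The test of whether the SL difference itself changed between ED14.5 and liver called 0 members, against 0.0256% of all named genes, with an unadjusted p below 0.05 for 9 members (12.3%) and for 10.6% of all named genes. Cyp2c39 had a change in difference of 1.15 ± 0.37 (SE, limma adjusted p = 0.255), Cyp2c68 of 0.59 ± 0.20 (SE, limma adjusted p = 0.293) and Cyp2c55 of 1.23 ± 0.43 (SE, limma adjusted p = 0.308). Cyp2c68 was lower in SL at ED14.5 and higher in SL in liver, without overlap at either stage, but this change did not pass the threshold. The median change over members was 0.09.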

How the data were processed

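The authors deposited log2 expression values per probe set, made with RMA in oligo per the submitters' processing notes, with no version stated, and these were used without further normalization. The number of arrays limits the precision. Genes were named by probe sets with 1 gene (19572 probe sets, 19505 genes), and the brightest by mean was taken for genes with several. Background was the 75th percentile of 5222 intron control probe sets on each array. Groups were compared with limma 3.58.1 in R 4.3.3, two-sided, with Benjamini-Hochberg adjustment over all named genes, and the SL difference between stages by an interaction contrast over 24 arrays. A fold is "at least" where a group was below background on all its arrays, and was computed against the background of those arrays.

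Values per array are given for the member with the largest control rise in each subfamily, the 6 most negative, the 5 with the smallest p in each SL comparison and well-known forms, and other genes were named after their values were seen. The members and lists were chosen with earlier results of these data known. Promoters were compared with Python 3.11.15, pandas 2.3.3 and Biopython 1.88. The fits were tested on simulated data. Replicate numbers were not taken to pair samples, since same-numbered arrays had deviations correlated between -0.165 and 0.116. Alternatives were array weights, a fit of all arrays, quantile normalization, the mean of probe sets, a replicate block, a robust trend, leaving out dim genes, no minimum difference, a Y-linked covariate, the 95th percentile as background and leaving out each array.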

Additional observations from a re-analysis of the deposited data

Results flagged for a closer look

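Within groups of 4 arrays, an array is listed where its gap to the nearest other array divided by the group's range exceeded Dixon's critical value for 4 samples. This was applied to 39 named P450 genes in 6 groups, and 10 of 234 gene and group pairs met it, or 4.27%, where chance gives about 1 in 20. Of the 10, 3 were above background on all arrays of the group. In ED14.5 controls Cyp2c68 was 9.28 in replicate 1 and 9.1 in each of the others. In control liver Cyp4f14 was 7.76 in replicate 1 and 8.28 to 8.35 in the others, and in SL liver 6.97 in replicate 3 and 7.64 to 7.74 in the others.

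The other 7 were below background. Cyp1a2 was 2.63 in ED7.5 SL replicate 1, with the others at 3.41 to 3.46, and Cyp2w1 was 3.41 in ED7.5 SL replicate 4, with the others at 3.64 to 3.68. Cyp2e1 was 3.95 in ED7.5 control replicate 4, with the others at 3.13 to 3.24, and 4.79 in ED14.5 SL replicate 3, with the others at 3.84 to 3.95. Cyp2f2 was 5.54 and Cyp4f39 was 4.39 in ED14.5 control replicate 2, with the others at 5.02 to 5.08 and 3.62 to 3.75. Cyp2c66 was 3.42 in control liver replicate 3, with the others at 2.81 to 2.88.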

How the results depend on the processing

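The 51 control and 53 SL members that rose between ED14.5 and liver numbered 51 to 51 and 51 to 54 when each array was left out in turn, and 44 and 44 without the dimmest 33% of genes, a setting that tests fewer genes. With no minimum difference they numbered 55 and 57. From ED7.5 to ED14.5, leaving out arrays gave 17 to 20 higher and 7 to 8 lower, and no minimum difference gave 24 and 10. The number of members lower in liver stayed 0 in each alternative run. All SL comparisons and the interaction gave 0 calls in limma under each alternative run, including each array left out (0 to 0) and, for the comparisons at each stage, the Y-linked mean as covariate. The fit of all 24 arrays gave the smallest liver adjusted p, at 0.0828 for Cyp2c39, 0.0842 for Cyp2c50 and 0.0912 for Cyp4a10 and Cyp4a32. Over the alternatives the adjusted p of Cyp2c39 ranged from 0.0828 to 0.658.

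Detection depended on the background level. With the 95th percentile of intron controls, members above background on all 4 arrays were 3 in place of 10 (ED7.5 control), 4 in place of 13 (ED7.5 SL), 6 in place of 14 (ED14.5 control) and 6 in place of 15 (ED14.5 SL). Among the results followed through each alternative, changes of sign occurred only in 3 undetected genes that passed no threshold. Outside that set, the liver SL difference of Cyp2a4 went from 0.32 to -0.57 without SL replicate 4, as given above. Cyp2w1, at -0.06, became 0.0034 with array weights and 0.080, 0.017 and 0.075 without ED14.5 control replicates 1 and 2 and liver control replicate 3. Cyp4a29, at -0.03, became 0.035, 0.033 and 0.052 without ED14.5 control replicates 3 and 4 and liver control replicate 4. Cyp4f18, at -0.06, became 0.021 and 0.19 without ED14.5 control replicate 3 and liver control replicate 1. Over all arrays left out in turn the differences of Cyp2w1, Cyp4a29 and Cyp4f18 ranged from -0.23 to 0.080, -0.12 to 0.052 and -0.19 to 0.19. The cause was not tested.

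Deviations of same-numbered arrays had correlations from -0.165 to 0.116. In the SL comparison of liver they were -0.016, 0.097, 0.116 and 0.066 for replicates 1, 2, 3 and 4. There replicates 2, 3 and 4 matched their own number best. Blocking on replicate number gave counts of 51 and 53 higher in liver, 17 higher and 8 lower from ED7.5 to ED14.5, and 0 in the SL comparisons, and it changed none of these calls. Values near background set only an upper limit on a level.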
